A study of Caenorhabditis elegans with 12 samples.

Results

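The 181 long intergenic noncoding RNA (lincRNA) genes of the count table were taken as all features that an annotation of build WBcel235 gives the class lincRNA, out of 46726 features in all. Of these genes 169 carried a linc- name and 12 a sequence or other gene name, such as T09F5.12 or lep-5. Small RNAs had been sequenced from whole adult Caenorhabditis elegans of 2 genotypes, each fed bacteria that make 1 of 2 double-stranded RNAs (dsRNAs). Strain YY1192 is mutant for hrde-2, by the allele gg517, and has hrde-1(gg594) as well; the control, YY1312, has hrde-1(gg594) alone. The sample titles call the control wild-type, and the labels do not say what gg594 changes. The fed dsRNA came either from the empty vector L4440 or from oma-1, which acts in oocyte maturation. Each of the 4 groups had 3 samples grown at 20 °C, but the table holds 1 pooled column of read counts per group. Values of the 4 columns follow 1 order throughout: vector-fed control, oma-1-fed control, vector-fed hrde-2, oma-1-fed hrde-2. The labels give another 5′ barcode for each genotype, so barcode and genotype cannot be told apart.

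A lincRNA is transcribed from its own gene between protein-coding genes and is not known to be translated. In the annotation used, however, the spans of 71 of the 181 genes overlap another annotated gene, and those of 39 overlap a protein-coding gene. In C. elegans, RNA-dependent RNA polymerases copy target transcripts, coding or noncoding, into short antisense RNAs, the 22G RNAs, which are loaded onto Argonaute proteins. One of these, HRDE-1, acts in germline nuclei and is needed for silencing to be inherited, and hrde-2 was named for the same defect in inherited RNAi. Reads at a lincRNA gene here are small RNAs that map to it, not the level of the lincRNA itself. The libraries took in small RNAs whatever the phosphates at their 5′ end, so 22G RNAs, which begin with a triphosphate, could be cloned.

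Gene-assigned reads numbered 16057238 to 39077097 per column. The spread of the 3 samples behind a column cannot be seen. All intervals are 95% intervals of counting error alone, and PCR copies of 1 molecule would make even that error too small. Only effects averaged over the other factor could be tested, in 1 additive fit of genotype and dsRNA with edgeR's quasi-likelihood test, which has 1 residual degree of freedom. At oma-1 the columns held 37 reads in vector-fed control, 10881 in oma-1-fed control, 148 in vector-fed hrde-2 and 5250 in oma-1-fed hrde-2, as the food labels have it. The hrde-2 gene held 7 to 50 reads in the 4 columns; small RNA reads do not check a mutation. The miRNA genes lin-4, mir-1 and mir-124 were listed at 0 in every column, so these data do not allow the labelled stage and tissue to be checked through such markers. At mir-41 reads were 1320, 2063, 898 and 442, or 80.6, 90.5, 13.5 and 20.2 CPM on the TMM scale explained below. Both hrde-2 columns were below both control columns. The same held for mir-37 (3.79, 5.09, 1.48 and 1.74 CPM), mir-35 (1.53, 1.10, 0.120 and 0.137) and mir-40, with at most 3 reads. It did not hold for mir-36, mir-38 and mir-39, with at most 28 reads. Whether the genotypes differ in stage or tissue was not tested. Reads that overlap more than 1 gene stand in a line of their own in the table (40.4 to 42.4% of the reads listed) and count for no gene.

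Small RNAs at lincRNA genes took a larger share of the reads in hrde-2 mutants on both foods. They numbered 12753 in vector-fed control, 19180 in oma-1-fed control, 99934 in vector-fed hrde-2 and 24876 in oma-1-fed hrde-2. In the same order this was 0.0504, 0.0560, 0.256 and 0.155% of the gene-assigned reads. The Wilson intervals were 0.0495 to 0.0512, 0.0552 to 0.0568, 0.254 to 0.257 and 0.153 to 0.157%. The share in hrde-2 was 5.08 times that in control on L4440 (4.99 to 5.17) and 2.77 times on oma-1 dsRNA (2.71 to 2.82). Both hrde-2 columns stood above both control columns. Among the 12 feature classes, counting features that the annotation lacks as 1 class, the lincRNA share had the second largest ratio on L4440 after antisense RNA (7.62) and the third largest on oma-1 dsRNA after antisense RNA (5.47) and piRNA (2.87). Protein-coding genes had 1.14 and 1.03.

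**Figure D1:**
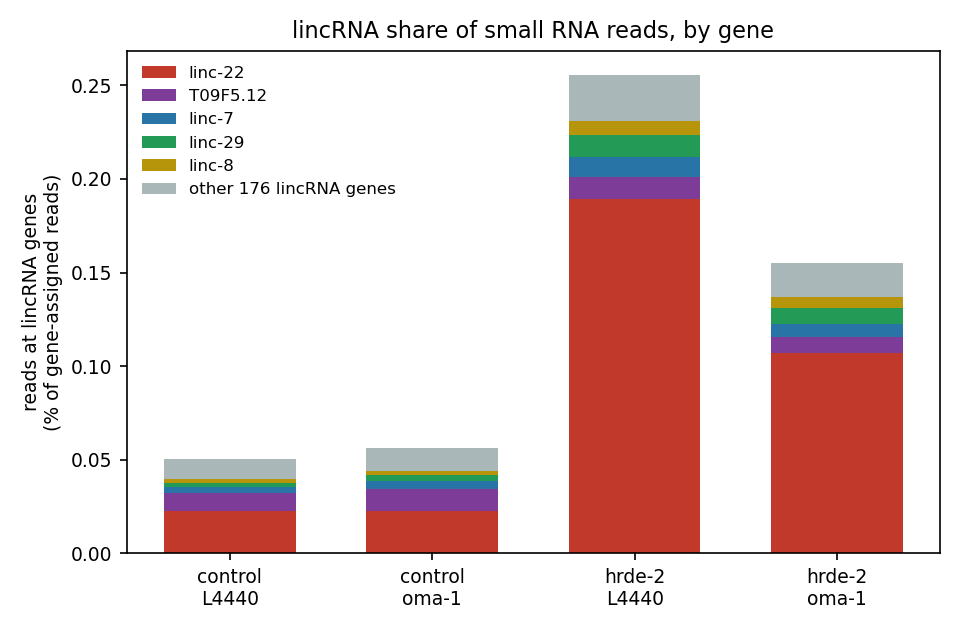
Reads at lincRNA genes as a percentage of gene-assigned reads (y axis) in the 4 group columns (x axis), stacked by gene; each column is the authors' pool of its group and has no error bar. The bars reach 0.0504, 0.0560, 0.256 and 0.155%, and the red part, linc-22, makes up most of both hrde-2 bars.

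The larger share was carried mainly by 1 gene, linc-22 (WBGene00219699, chromosome X, 9069138 to 9073735, plus strand, 5 exons with 4071 bases in all). It held 5682 reads in vector-fed control, 7646 in oma-1-fed control, 73981 in vector-fed hrde-2 and 17155 in oma-1-fed hrde-2. The 2 control columns were nearly the same as a share of gene-assigned reads, 0.0224 and 0.0223%, and both hrde-2 columns were far above them, at 0.189 and 0.107%. The share in hrde-2 was 8.44 times that in control on L4440 (8.21 to 8.67) and 4.78 times on oma-1 dsRNA (4.66 to 4.92). Within the lincRNA reads, linc-22 took 44.6, 39.9, 74.0 and 69.0% in that order of columns.

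Of the gain in lincRNA share between the genotypes, 0.205 percentage points on L4440 and 0.0989 on oma-1 dsRNA, linc-22 made up 81.3 and 85.4%. The next were linc-29 with 4.58 and 5.90%, linc-7 with 3.88 and 2.67%, linc-8 with 2.60 and 3.54%, and linc-6 and F39E9.10 with between 1.03 and 1.34% each. Without linc-22, the other 180 genes together had 2.38 times the control share on L4440 (2.32 to 2.44) and 1.43 times on oma-1 dsRNA (1.39 to 1.47). The gain was therefore present among the other genes too, but smaller. Over all features compared on a single food, the median log2 difference by share was 1.17 on L4440 and 0.88 on oma-1 dsRNA. A gain by share was thus not particular to lincRNA genes.

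**Figure D2:**
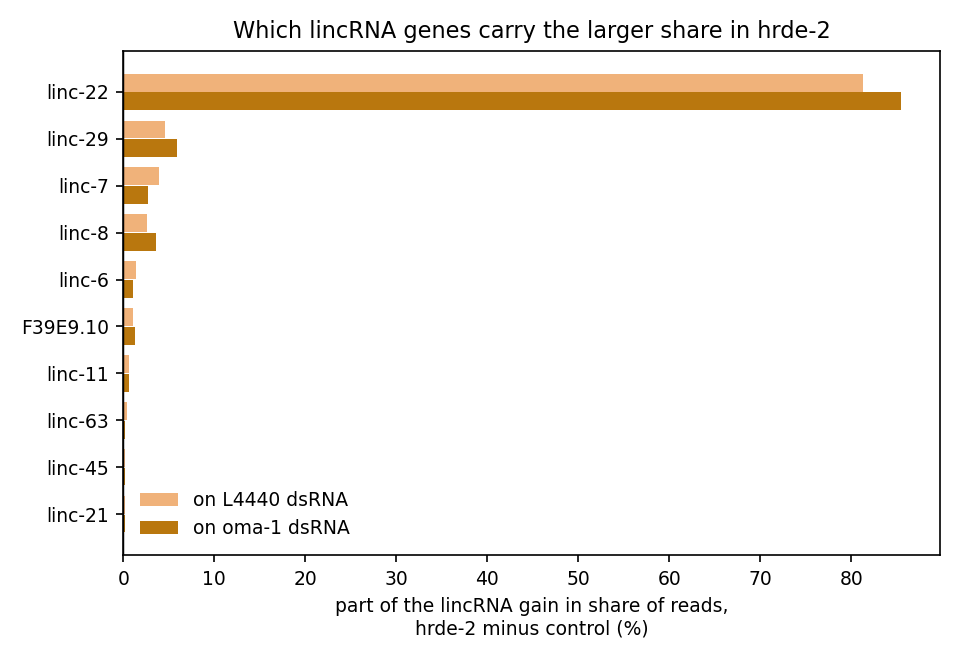
Part of the lincRNA gain in share of gene-assigned reads, hrde-2 minus control (x axis, %), for the 10 genes with the largest mean gain (y axis), on L4440 and on oma-1 dsRNA; a part below 0 would be a loss. linc-22 holds 81.3 and 85.4% of the gain, and no other gene holds more than 5.90%.

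The sign of the difference at the other lincRNA genes depended on the scale. A share is taken of reads of which tRNA genes hold more than any other class, while the trimmed mean of M values (TMM) sets a scale on the assumption that most features do not differ. Between the scales a genotype difference moves by 1.40 on the log2 scale on L4440 and by 1.03 on oma-1 dsRNA. In CPM, reads relative to the TMM-scaled library total, the lincRNA genes without linc-22 summed to 432 in vector-fed control, 506 in oma-1-fed control, 389 in vector-fed hrde-2 and 354 in oma-1-fed hrde-2. On that scale the hrde-2 columns were thus lower, with ratios of 0.901 (0.877 to 0.925) and 0.699 (0.679 to 0.720). With linc-22 included the ratios were 1.92 and 1.35.

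On the TMM scale linc-22 stood at 347 CPM in vector-fed control, 335 in oma-1-fed control, 1109 in vector-fed hrde-2 and 786 in oma-1-fed hrde-2. The ratio of hrde-2 to control was 3.20 on L4440 (3.11 to 3.28) and 2.34 on oma-1 dsRNA (2.28 to 2.41). Over both foods linc-22 rose in hrde-2 by 1.45 on the log2 scale (edgeR quasi-likelihood test, adjusted p = 0.0137 over 16329 features), higher in both hrde-2 columns than in either control column. It was also called by edgeR under the 3 other scalings or filters and by DESeq2, with adjusted p between 3.187e-09 and 0.0187. All these fits use the same columns, and the class was taken up with its larger share in hrde-2 known. The calls therefore describe linc-22 and are no independent support. By mean gain in share it stood behind 31 of all 46726 features, of which 23 were tRNA, rRNA, snRNA or snoRNA genes.

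The genes around linc-22 did not all differ as it did, and several held too few reads to compare. Its exons overlap the snoRNA gene F47E1.19 on the same strand and the piRNA genes 21ur-15566 and 21ur-9719 on the opposite strand. These 3 were listed at 0 in every column. Reads on both linc-22 and F47E1.19 count for no gene, and those on the piRNA genes likewise if the counting ignored strand. Their 0 therefore does not show whether they share the difference. The protein-coding neighbours F47E1.4, 2476 bases upstream, and F47E1.1, 3451 bases downstream, held at most 24 reads in any column. At F47E1.4 the reads were 11, 11, 24 and 5, a TMM ratio of 0.536 (0.253 to 1.21) on L4440.

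Within 10 kb, 2 other genes were higher in hrde-2 than in control under TMM on both foods with intervals clear of 1, and 1 was lower. The lower one, a tRNA gene 9744 bases upstream (WBGene00023054), held 207, 290, 377 and 145 reads, ratios of 0.447 (0.376 to 0.532) and 0.522 (0.425 to 0.640). The noncoding RNA gene F47E1.13, 4506 bases downstream, held 101, 159, 5723 and 741 reads, TMM ratios of 13.9 (11.4 to 17.1) and 4.87 (4.10 to 5.81). Its span covers a tRNA gene on the opposite strand, which was listed at 0; whether the counting used strand is not known, so reads of overlapping genes on opposite strands cannot be told apart, here or at the lincRNA genes below. The protein-coding gene ajm-1, which encodes a protein of epithelial junctions, held 56, 59, 524 and 270 reads, ratios of 2.30 (1.74 to 3.08) and 4.78 (3.59 to 6.45).

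Of the 181 lincRNA genes, 8 had no read in any column, 71 had 1 to 9 reads in total, 70 had 10 to 99, 22 had at least 100 but under 1000 and 10 had 1000 or more. The median total was 14 reads. In the control columns 11 genes made up 90% of the lincRNA reads, in the hrde-2 columns 5 on L4440 and 6 on oma-1 dsRNA. At 5 CPM or more in the highest column, the level used for single-food comparisons, there were 13 genes. The lowest of these was linc-128 at 6.78 CPM, and the highest below the level was linc-45 at 3.94 CPM. The 168 genes under the level held 996, 1492, 3737 and 1175 reads in all.

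**Figure D3:**
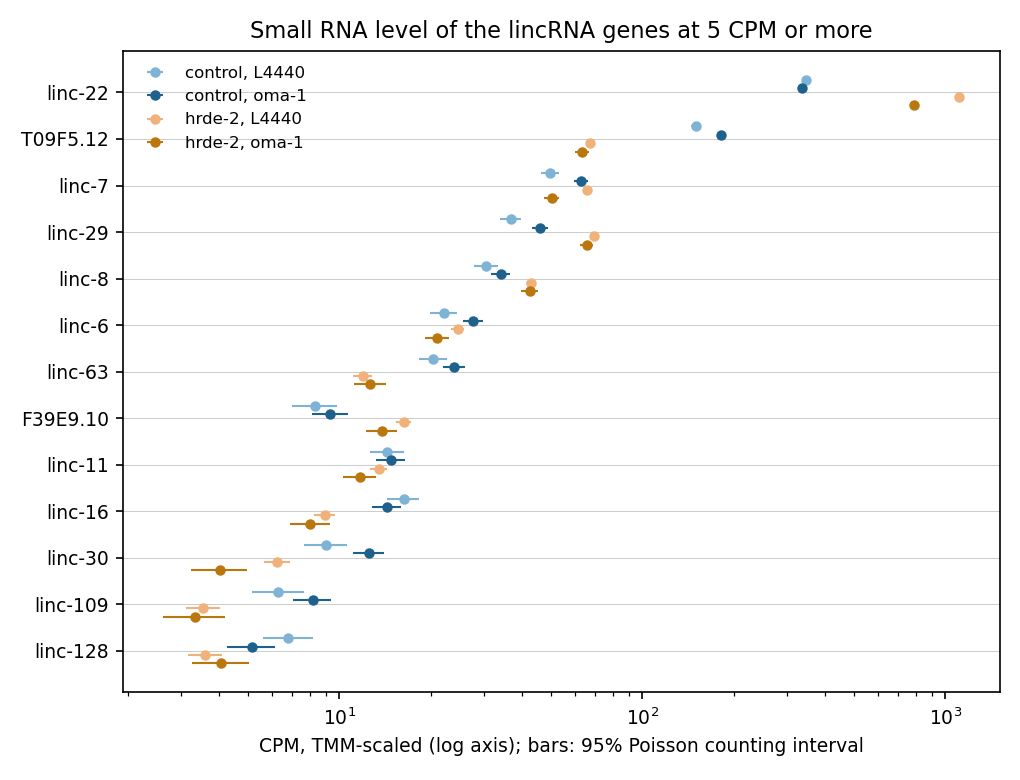
TMM-scaled CPM (x axis, log scale) of the 13 lincRNA genes at 5 CPM or more (y axis, by total reads) in the 4 group columns, with exact 95% Poisson intervals of counting error. For linc-22, at 335 to 1109 CPM, both hrde-2 points lie right of both control points; for T09F5.12, at 63.2 to 182 CPM, both lie left.

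Per length the order of the genes changed. As CPM per kb of exon, averaged over the columns, linc-22 led at 158, followed by linc-6 at 137 with an exon of only 174 bases, linc-29 at 86.3 and T09F5.12 at 77.9. In control on L4440 linc-6 stood at 127 CPM per kb, T09F5.12 at 101 and linc-22 at 85.2, so that linc-22 led only in the hrde-2 columns, at 272 and 193. Exon length and total reads were weakly related over the 102 genes with 10 reads or more, with a Spearman rho of 0.13 across genes, which share libraries and are not independent. The 13 genes at the level had a median exon length of 970 bases (174 to 4071), the others 433 (101 to 4183).

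By chromosome, the 36 lincRNA genes on X held 54.2, 51.2, 80.3 and 75.7% of the lincRNA reads in the 4 columns. Without linc-22 the X genes held 17.3, 18.8, 24.3 and 21.6% of what remained. Of those remaining X reads, linc-7 and linc-6 held most in every column.

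The genotype difference on each food could be compared for the 13 genes at the level. On L4440 under TMM, 1 of 13 was at least 2-fold higher in hrde-2, linc-22, against 13.1% of all 2138 features compared, and 1 was at least 2-fold lower, T09F5.12, against 29.5%. On oma-1 dsRNA 1 was higher, again linc-22 (background 13.8%), and 3 were lower, T09F5.12, linc-30 and linc-109 (background 27.8%). The median log2 difference of the 13 was −0.09 on L4440 and −0.34 on oma-1 dsRNA, and that of all features −0.47 and −0.39. As shares of gene-assigned reads, 9 of 15 genes compared were at least 2-fold higher on L4440 and 4 of 13 on oma-1 dsRNA, against 58.1 and 44.6% of all features. No gene was 2-fold lower by share on either food, against 3.44 and 4.39% of all features. With 13 to 15 genes compared, these counts do not set the class apart from the background.

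T09F5.12 (WBGene00014836, chromosome V, 15164743 to 15166318, minus strand) had the second most reads in the class and went the other way on the TMM scale. It held 2465 reads in vector-fed control, 4143 in oma-1-fed control, 4478 in vector-fed hrde-2 and 1380 in oma-1-fed hrde-2, or 151, 182, 67.1 and 63.2 CPM. Both hrde-2 columns were below both control columns. The ratio was 0.446 on L4440 (0.424 to 0.469) and 0.348 on oma-1 dsRNA (0.327 to 0.370), and T09F5.12 fell by 1.34 on the log2 scale over both foods (edgeR, adjusted p = 0.00705). As a share of reads it was 1.18 times the control on L4440 and 0.710 times on oma-1 dsRNA, and under library size alone it was not called (adjusted p = 0.766).

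Of the next genes by reads, linc-29 (WBGene00189951, chromosome IV, 6354024 to 6357243, plus strand) was higher in hrde-2 on both foods without passing the test. Its reads were 603, 1048, 4603 and 1428 in the same order of columns, or between 36.8 and 69.0 CPM. The ratios were 1.87 (1.72 to 2.04) and 1.42 (1.31 to 1.54), with a log2 difference of 0.71 over both foods (edgeR, adjusted p = 0.198). F39E9.10, on chromosome II, was like it at a lower level, with 136, 213, 1087 and 301 reads. Its ratios were 1.96 (1.64 to 2.36) and 1.48 (1.23 to 1.77), and its log2 difference 0.77 (adjusted p = 0.0669). For both, the 2 hrde-2 columns lay above the 2 control columns.

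For linc-8, on chromosome II, reads were 500, 777, 2859 and 926, and the ratios 1.40 (1.28 to 1.55) and 1.24 (1.13 to 1.37). Its log2 difference of 0.40 did not pass the test (edgeR, adjusted p = 0.502). The single-exon gene linc-7, on chromosome X (16002599 to 16003728), lies within the span of the protein-coding gene C09G1.4 on the opposite strand, which held at most 14 reads. At linc-7 reads were 811, 1433, 4366 and 1096, 49.5, 62.8, 65.4 and 50.2 CPM, so that hrde-2 was above control on L4440 (ratio 1.32, 1.23 to 1.43) and below it on oma-1 dsRNA (0.799, 0.738 to 0.865). At linc-6 reads were 362, 630, 1638 and 459, with ratios of 1.11 (0.991 to 1.25) and 0.761 (0.673 to 0.860). Its span lies inside that of a pseudogene on the opposite strand with 16 to 108 reads, and it overlaps the ncRNA gene F52D2.14 with at most 10.

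Of the other genes at the level, linc-16, linc-30 and linc-109 fell in hrde-2 under TMM, while under library size alone their averaged log2 differences were above 0, at 0.36, 0.13 and 0.16. At linc-30, a single-exon gene on chromosome I, reads were 148, 286, 415 and 88, or 9.04, 12.5, 6.22 and 4.03 CPM. It fell by 1.07 on the log2 scale (edgeR, adjusted p = 0.00269), with ratios of 0.688 (0.569 to 0.836) on the vector food and 0.321 (0.250 to 0.409) on oma-1 dsRNA. At linc-109, on chromosome III, reads were 103, 186, 237 and 73, and the fall was 1.05 (adjusted p = 0.00136). At linc-16 reads were 267, 327, 596 and 175, and the fall was 0.85 (adjusted p = 0.0328). The exons of linc-16 overlap the F-box genes fbxc-19, on the opposite strand with 15 to 65 reads, and fbxa-3, on the same strand with at most 11. None of these 3 was called by DESeq2 (adjusted p = 0.106 to 0.174).

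At linc-63 (chromosome I) reads were 334, 545, 796 and 276 and at linc-128 (chromosome V) 111, 117, 241 and 89, with log2 differences of −0.85 and −0.63 (edgeR, adjusted p = 0.0535 and 0.0783). The 1727 reads of linc-11 (chromosome II) gave a log2 difference of −0.21 (adjusted p = 0.713). The 13 genes thus spread over a range of log2 differences from −1.34 at T09F5.12 to 1.45 at linc-22, 4 of them above 0 on both foods, 7 below 0 on both and 2 with opposite signs. As shares, 10 of the 13 were above 1 on both foods and 0 below 1 on both. Signs were not counted over all features. Their median log2 differences on L4440 and oma-1 dsRNA were −0.47 and −0.39 under TMM and 1.17 and 0.88 by share. These medians give no count of signs to set beside that of the 13 genes, so the signs were not compared with those of other features.

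**Figure D4:**
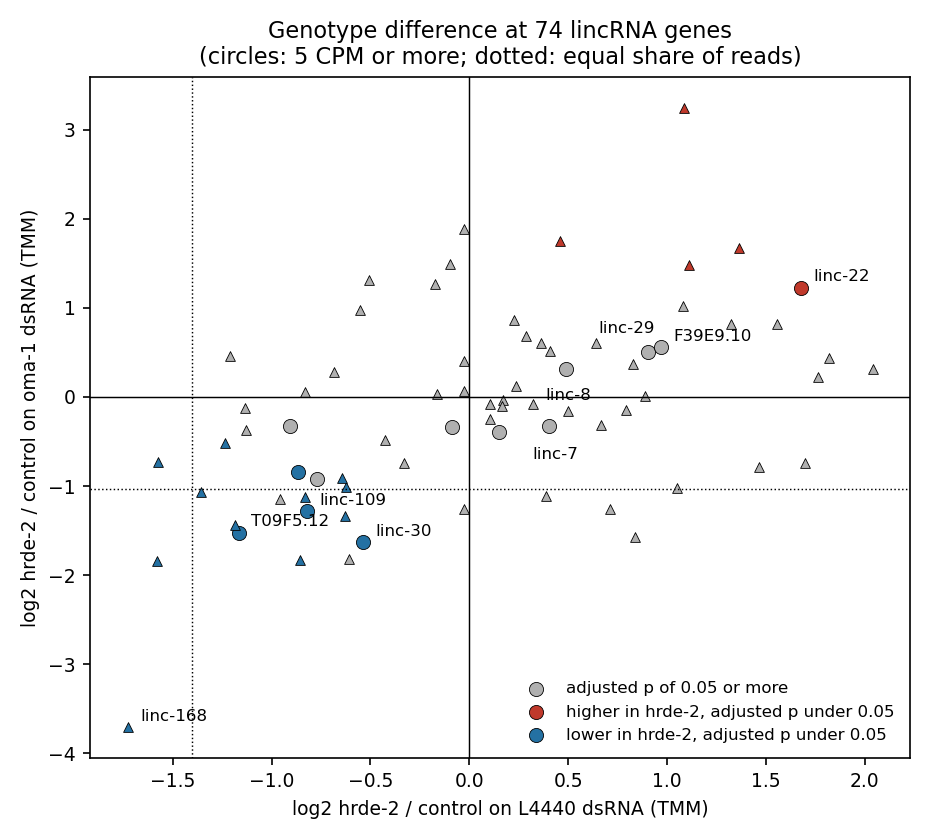
TMM log2 difference of hrde-2 to control on L4440 dsRNA (x axis) and on oma-1 dsRNA (y axis) for the 74 lincRNA genes that passed the filter on low counts and have reads in every column; circles are genes at 5 CPM or more, triangles genes under it, colours mark the edgeR call over both foods, and dotted lines mark where the share of gene-assigned reads is equal. linc-22 is the only red circle, and T09F5.12, linc-30, linc-109 and linc-16 are the blue ones; under library size alone the last 3 have averaged differences of 0.13, 0.16 and 0.36.

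Over both foods, 77 lincRNA genes passed the filter on low counts and 104 did not. Of the 77, 6 rose in hrde-2 at an adjusted p under 0.05, against 8.95% of the 16329 features tested, and 15 fell, against 9.70%. The median log2 difference was 0.04 for the 77 genes and 0.02 for all features. Because a gene with few reads passes the filter through the column where it is high, these counts do not describe the class. Besides linc-22 the genes that rose were linc-46, linc-166, linc-113, linc-61 and linc-66, all under 5 CPM. These 5 held at most 10 reads in either control column and passed the filter only through the hrde-2 columns, so their calls are given as a description. At linc-113, on chromosome I, there were 4, 0, 61 and 17 reads, and the interval of the ratio was 1.39 to 14.2 on L4440 and from 4.31 upward on oma-1 dsRNA. None of these 5 was called by DESeq2.

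The genes under 5 CPM that fell were linc-17, linc-121, linc-44, linc-12, Y9D1A.1, Y48C3A.1, linc-168, linc-85, linc-68, linc-156 and linc-77. Under library size alone linc-168 was the 1 gene of the 77 called lower, and 42 were called higher. In that fit the median log2 difference was 1.25 for the 77 genes and 1.24 for all features. The 42 calls thus do not set the class apart. The lowest p was that of linc-168 (WBGene00219625, chromosome V, 18649942 to 18650327, minus strand), at 38, 86, 46 and 6 reads. The ratio was 0.297 on L4440 (0.189 to 0.469) and 0.0729 on oma-1 dsRNA (0.0260 to 0.165). It fell by 2.41 on the log2 scale (edgeR, adjusted p = 8.065e-14). The adjusted p was 0.00335 by edgeR under library size alone and 0.00079 by DESeq2. With 1 pooled column per group, none of these measures the spread between samples. The log2 genotype difference on oma-1 dsRNA minus that on L4440 was −1.98 (counting SE 0.69). Its share of reads was 0.149 times the control on oma-1 dsRNA (0.0531 to 0.337), while on L4440 the interval included 1 (0.784, 0.499 to 1.24). Only linc-22 among the genes that rose and linc-168 among those that fell were called in the same direction by all 5 fits run, edgeR under 4 combinations of scaling and filter and DESeq2. With DESeq2, 28 of the 77 genes had no adjusted p, 1 rose and 2 fell, T09F5.12 and linc-168.

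Pairs of lincRNA genes next to each other on the same strand could be set side by side. On chromosome IV linc-41 and linc-21 lie 320 bases apart and held 367 and 405 reads in all, with TMM log2 differences of 0.12 and 0.17 averaged over foods. On chromosome III linc-19 and linc-45 lie 456 bases apart, with 184 and 481 reads and differences of 0.45 and 0.01. On chromosome II linc-17 and linc-68 lie 703 bases apart, with 324 and 140 reads. Both fell on the TMM scale, with averaged differences of −0.82 and −1.71 (edgeR, adjusted p = 0.0108 and 1.456e-06). Under library size alone these were 0.39 and −0.51, of opposite sign. Neither gene was called under library size alone or by DESeq2. Among lincRNA genes with a known role, lep-5, whose RNA is needed for the timing of the juvenile-to-adult change in the male tail and nervous system, held 5, 9, 16 and 5 reads, too few to show a difference (ratios 0.785, 0.275 to 2.74, and 0.580, 0.153 to 1.93).

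The foods were compared within each genotype and over both. Between oma-1 and L4440 dsRNA, none of the 13 lincRNA genes compared in control and none of the 11 compared in hrde-2 differed 2-fold under TMM, where 0.647 and 0.299% of all features were higher and lower in control, and 3.78 and 1.08% in hrde-2. As shares of gene-assigned reads, 0 of 12 genes in control and 0 of 15 in hrde-2 differed 2-fold, where 0.755 and 0.275% of all features were higher and lower in control, and 0.75 and 2.59% in hrde-2. At such a background, counts of 0 among 11 to 15 genes do not set the class apart from other features. In control linc-22 had a ratio of oma-1 to L4440 dsRNA of 0.967 (0.934 to 1.00045), and in hrde-2 of 0.709 (0.697 to 0.721). The log2 genotype difference at linc-22 on oma-1 dsRNA minus that on L4440 was −0.45 (counting SE 0.028), a change for which no test with replicate error was possible. Of the 77 genes in the additive fit, 0 were higher on oma-1 dsRNA at an adjusted p under 0.05, with 2 at an unadjusted p under 0.05 and 0 called by DESeq2 (background 0.098%). One was lower (background 0.0796%), Y9D1A.1 on chromosome II, named here after its value was seen. Its reads were 53 and 21 in control and 91 and 14 in hrde-2 on L4440 and oma-1 dsRNA, a log2 difference of −1.49 over both genotypes (edgeR, adjusted p = 0.00218), which DESeq2 did not call.

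The profile of linc-22 over the 4 columns was compared with those of the other 1268 features with 1000 reads or more. With each profile centred on its own mean on the log2 scale, 1 feature stayed within 0.1 of linc-22 in every column, the miRNA gene cel-mir-65 on chromosome III. It held 5042, 6665, 61264 and 15055 reads, in the same order of columns. This is likeness over 4 columns only. None of the 10 lincRNA genes with 1000 reads or more had another gene with near-equal reads, within 5% or 15 reads in every column, which would have marked reads counted at more than 1 place. The nearest profile to T09F5.12 was that of a pseudogene on chromosome I (732, 1280, 1317 and 423 reads), and 7 features stayed within 0.1 of it.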

How the data were processed

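The authors deposited 1 table with raw read counts per WormBase gene identifier, 1 column for each group of 3 samples, per the file headers. How the samples were merged, and the aligner, build, annotation and strand setting of the counting, are not stated in the sources used; HTSeq 0.6.1 is the 1 tool in the submitters' processing notes. A second block is a signal that the authors made by dividing each count by 1, 1.34, 2.33 or 0.87, in the order of columns used above; it was used for 1 alternative scaling. Small RNAs (2 µg) were cloned independently of the 5′ phosphate, per the labels' protocols. Reads assigned to genes were 34.7 to 40.1% of the reads listed; the lines for ambiguous reads, reads at no feature and unaligned reads were left out.

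Of 46726 identifiers, 46364 matched Ensembl's annotation of WBcel235, and 181 of its 194 lincRNA genes had a row. filterByExpr (minimum count 10, total 15) kept 16329 features. TMM factors and the additive fit used glmQLFit (robust) and glmQLFTest of edgeR 4.0.16 with Benjamini-Hochberg adjustment over all features kept; the common dispersion was 0.0305 and the smallest prior degrees of freedom were 452, so the spread is almost wholly shared across features. DESeq2 1.42.0 was an alternative. Single-food log2 differences used a prior count of 0.5, a level of 5 CPM in the higher column and a 2-fold limit; ratios carry exact conditional binomial 95% intervals, levels exact Poisson and shares Wilson intervals.

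Genes named are those with the 10 largest gains and 5 largest losses of share, the 6 highest and 6 lowest genotype differences, the 3 highest and 3 lowest dsRNA differences in each genotype, the 10 with most reads, and genes overlapping these; linc-68, linc-77 and Y48C3A.1 entered through their loss of share. Genes called by the fit, close pairs, lep-5 and the profile comparison were added after their values were seen. The members and lists were chosen with earlier results of these data known. No genome sequence was used here, so no sequences are shown.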

Additional observations from a re-analysis of the deposited data

Results flagged for a closer look

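At linc-7 the genotype difference had opposite signs on the foods under TMM, 0.40 on the log2 scale on L4440 dsRNA and −0.32 on oma-1 dsRNA, with both counting intervals clear of no difference. The difference between the foods was not tested, since each group has 1 column. As a share of gene-assigned reads linc-7 was higher in hrde-2 on both foods, 3.49 and 1.63 times the control.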

How the results depend on the processing

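No paired analysis was possible because the table has 1 pooled column per group and carries no replicate numbers; for the same reason no replicate could be left out. The ratio of the lincRNA share in hrde-2 to control (5.08 on L4440, 2.77 on oma-1 dsRNA) was 4.56 and 2.40 of all reads listed, 4.23 and 2.36 of gene reads outside tRNA, rRNA, snRNA and snoRNA, and 2.38 and 1.43 without the 4 genes that overlap a structural RNA or miRNA gene, linc-22 among them. Alternatives chosen after seeing the data gave 2.38 and 1.43 without linc-22, 1.92 and 1.35 on the TMM scale, and 0.901 and 0.699, the other direction, on the TMM scale without linc-22. The count of genes 2-fold higher in hrde-2 on L4440 (1 under TMM) was 9 under library size alone, 5 under the authors' factors, 2 under miRNA factors, 2 without the filter and 0 without linc-22 or the 4 overlapping genes; the count lower (1) was 0 under library size and the authors' factors. On oma-1 dsRNA the count higher (1) was 4 under library size, 3 under the authors' factors and 0 without linc-22 or the overlapping genes, and the count lower (3) was 0 under library size, 1 under the authors' factors and 1 at 20 CPM. The genotype fit (6 rose, 15 fell) gave 42 and 1 under library size alone and 1 and 2 with DESeq2. By library size the median log2 difference was 1.25 for the 77 genes fitted and 1.24 for all features. The dsRNA fit (1 lower) gave 0 with DESeq2. Under library size alone the averaged genotype difference turned to 0.13 at linc-30 and 0.16 at linc-109. The sign shifts follow from the scale, which moves all features alike; the cause of the other changes was not tested. DESeq2 size factors changed no count of genes on a single food. Low read numbers limit the 168 genes under 5 CPM, most of which hold too few reads for a comparison. How far reads left out at overlapping genes lower these numbers was not tested.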
